A study of Mus musculus with 12 samples.

Results

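The epidermal differentiation complex is a dense cluster of genes for the outer layers of the skin. It was taken here as the protein-coding RefSeq genes of mouse chromosome 3 whose symbol begins with Sprr, Lce or S100a, together with Flg, Flg2, Hrnr, Rptn, Tchh, Ivl, Lor, Crnn and Crct1. This gave 59 of the 21631 protein-coding genes on chromosomes 1 to 19 and X: 15 S100a genes, 14 Sprr genes, 21 Lce genes, 6 genes of the S100-fused type (Flg, Flg2, Hrnr, Rptn, Tchh, Crnn) and 3 other envelope genes (Ivl, Lor, Crct1). The first begins at position 90511034 and the last ends at position 93564645 of the mm10 build, a stretch of 3.05 Mb.

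Open chromatin had been mapped by ATAC-seq, in which a transposase cuts into exposed DNA, in mature medullary thymic epithelial cells (mTEChi) of C57BL/6 mice aged 4 to 7 weeks, which had been sorted from digested thymus. The 12 libraries formed 6 groups of 2. They were Aire -/- mice, which lack the autoimmune regulator AIRE, with Aire +/+ wild types; Aire +/C313Y mice, with a missense change in 1 copy of the gene, with Aire +/+ wild types; and Aire +/C442G mice, with another missense change in 1 copy, with Aire +/+ wild types. The 6 wild types are all labelled Aire +/+ and were matched to a mutant by the form of their titles, an assumption, so the groups are called the Aire -/- set, the C313Y set and the C442G set below. The labels do not say that the libraries of a group came from separate animals, so the spread between them may be technical. Each library was a list of accessible stretches (peaks) without read counts. A gene was called open in a library when a peak lay within 1 kb of either annotated end, and closed when no peak had been called there at that library's depth, which is unknown. The annotation used gives no exons, so it cannot be said whether a peak inside a gene falls in an exon, an intron or an untranslated part.

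Keratinocytes that leave the basal layer of the epidermis replace their membrane by a cornified envelope, a shell of proteins joined by transglutaminases. Involucrin (Ivl) is laid down early, loricrin (Lor) makes up most of the finished envelope, and the small proline-rich proteins (Sprr) and late cornified envelope proteins (Lce) reinforce it. Filaggrin (Flg) and its S100-fused relatives bundle keratin filaments or harden the hair sheath, and S100 proteins bind calcium, the signal that starts the programme. Medullary thymic epithelial cells show such skin proteins to developing T cells as self antigens, partly under the control of AIRE, and some of these cells later turn into cornified cells in Hassall's corpuscles.

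The promoter windows below run from 250 bases before to 50 bases after the annotated start (RefSeq, GRCm38.p6). They belong to 3 envelope genes that stand for the range seen. Sprr1a was open at its start in 12 of 12 libraries, Lor near its far end in 12 and at its start in none, and Ivl in 1. Capitals mark the AP-1 letters TGANTCA and the TATA letters TATAAA. The Sprr1a window is chr3:92485832-92486131, the Lor window chr3:92083093-92083392 and the Ivl window chr3:92573686-92573985, all read on the minus strand.
Sprr1a: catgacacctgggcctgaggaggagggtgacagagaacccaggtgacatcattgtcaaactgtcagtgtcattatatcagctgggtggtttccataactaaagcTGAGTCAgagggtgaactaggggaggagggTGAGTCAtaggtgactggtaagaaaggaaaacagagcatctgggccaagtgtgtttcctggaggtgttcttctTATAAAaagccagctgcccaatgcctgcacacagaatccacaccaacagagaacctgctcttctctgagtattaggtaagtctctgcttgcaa
Lor: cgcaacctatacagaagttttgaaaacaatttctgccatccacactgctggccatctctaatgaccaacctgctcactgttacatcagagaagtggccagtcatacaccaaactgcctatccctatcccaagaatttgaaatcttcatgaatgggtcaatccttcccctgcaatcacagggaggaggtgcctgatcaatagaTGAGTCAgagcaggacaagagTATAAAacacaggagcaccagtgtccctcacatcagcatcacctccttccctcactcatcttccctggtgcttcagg
Ivl: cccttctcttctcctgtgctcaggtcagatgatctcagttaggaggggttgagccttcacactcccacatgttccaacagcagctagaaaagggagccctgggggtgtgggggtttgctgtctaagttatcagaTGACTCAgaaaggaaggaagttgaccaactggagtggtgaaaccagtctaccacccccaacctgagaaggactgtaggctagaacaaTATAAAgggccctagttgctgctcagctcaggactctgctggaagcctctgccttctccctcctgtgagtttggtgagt

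A further pair of windows shows how alike 3 Sprr2a genes are. The Sprr2a1 window, chr3:92215585-92215884 on the plus strand, is identical to that of Sprr2a2 over all 300 bases. It shares an unbroken run of 272 bases, in capitals, with the Sprr2a3 window, chr3:92285054-92285353 on the plus strand. All other pairs of Sprr windows shared runs of at most 45 bases.
Sprr2a1: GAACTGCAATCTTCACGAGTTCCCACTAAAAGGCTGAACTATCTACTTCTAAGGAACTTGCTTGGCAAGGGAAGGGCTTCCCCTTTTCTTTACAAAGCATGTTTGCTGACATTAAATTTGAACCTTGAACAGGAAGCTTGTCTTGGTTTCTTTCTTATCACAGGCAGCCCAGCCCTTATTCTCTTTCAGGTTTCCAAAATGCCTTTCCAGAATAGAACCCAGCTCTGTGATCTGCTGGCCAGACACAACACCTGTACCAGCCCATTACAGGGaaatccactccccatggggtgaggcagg
Sprr2a3: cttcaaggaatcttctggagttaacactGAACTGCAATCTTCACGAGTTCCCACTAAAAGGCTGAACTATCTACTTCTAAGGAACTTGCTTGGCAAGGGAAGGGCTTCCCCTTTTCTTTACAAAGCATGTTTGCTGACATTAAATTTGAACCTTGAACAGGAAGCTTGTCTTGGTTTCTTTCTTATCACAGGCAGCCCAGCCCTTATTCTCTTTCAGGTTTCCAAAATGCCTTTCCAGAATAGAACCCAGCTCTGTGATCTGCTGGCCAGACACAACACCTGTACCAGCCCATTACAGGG

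Most of the cluster had no called peak at its genes. Of the 59 genes, 32 (54.2%) were open in none of the 12 libraries, against 25.8% of all protein-coding genes, and 8 (13.6%) were open in all 12, against 46.6% of all protein-coding genes. The genes open in all 12 were S100a1, S100a13, S100a14, S100a3, S100a4 and S100a11 of the S100a family, together with Lor and Sprr1a. The 32 closed genes comprised 19 of 21 Lce genes, 7 of 14 Sprr genes, 4 of 6 S100-fused genes (Flg, Flg2, Hrnr and Tchh) and 2 S100a genes (S100a2 and S100a7l2). By annotated start alone, counting any start of a gene that has several, 7 of the 54 genes with an entry (13.0%) were open in all 12 libraries, against 49.4% of all genes with an entry, and 34 (63.0%) in none, against 27.2%. The map of open genes shows that 10 of the 15 S100a genes, which lie mostly at the ends of the cluster, were open in 11 or 12 libraries. The exceptions were S100a5 (10), S100a7a (7), S100a9 (4), S100a2 (0) and S100a7l2 (0). Of the 44 other members Lor and Sprr1a were open in 12 and Rptn in 10.

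**Figure D1:**
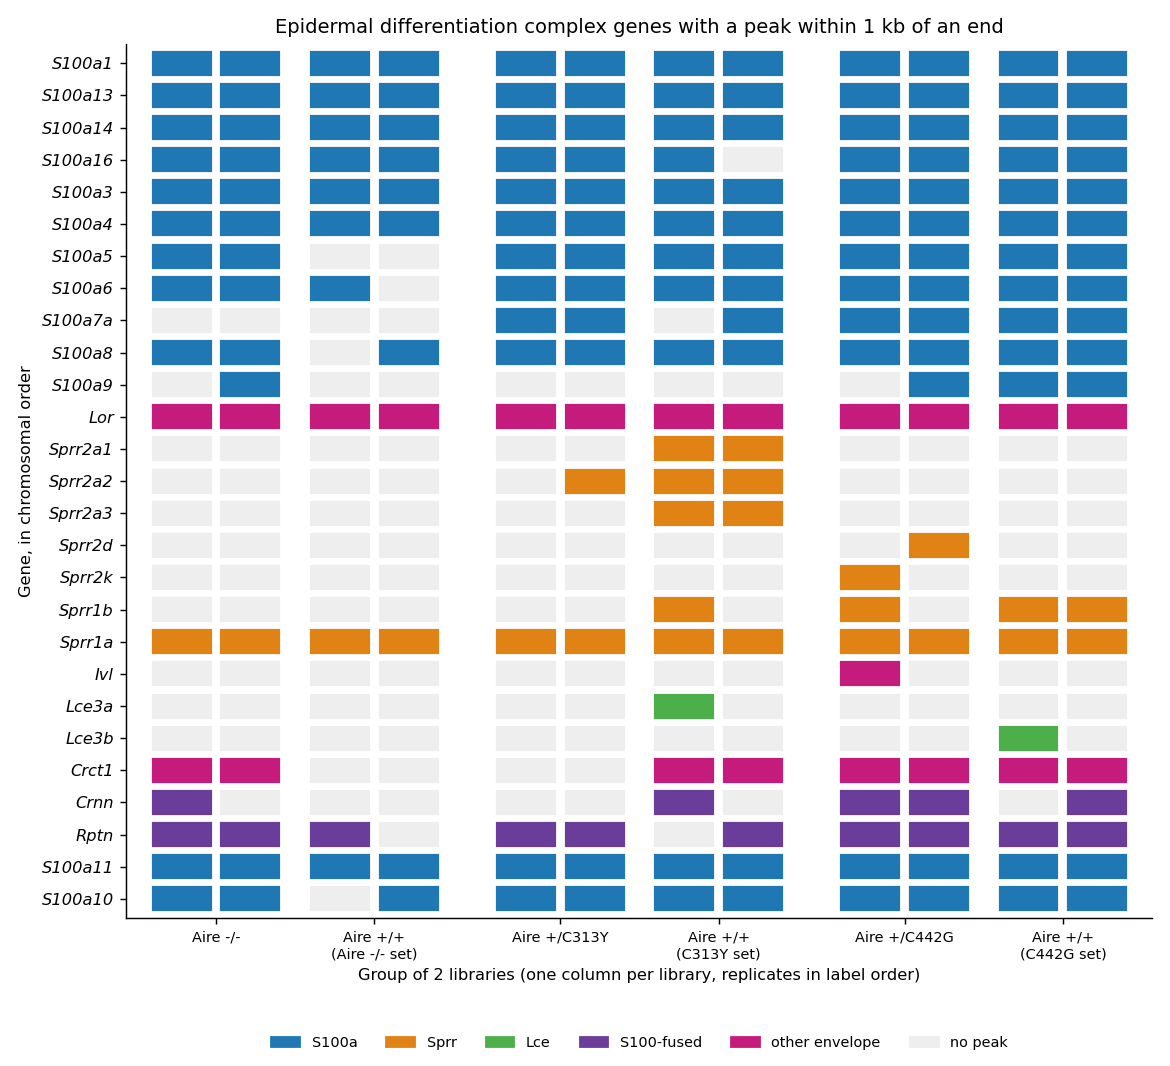
Each row is 1 of the 27 member genes open in at least 1 library, in chromosomal order, and each column is 1 of the 12 libraries; a coloured tile marks an open gene, with the colour giving the family. The 8 rows filled across are the genes open in all 12 libraries, and the Sprr2a rows are filled only in the C313Y set.

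The sorted cells were checked against their own markers first. Of 12 markers of mTEChi, 7 were open in all 12 libraries (Epcam, Aire, H2-Aa, H2-Ab1, Cldn3, Tnfrsf11a and Cd40). Cldn4 was open in 11, Cd86 in 9, Krt5 and Krt14 in 8, and Cd80 in 1. Krt5 was open in no library of the Aire -/- set and in every library of the other sets. Between 7 and 12 of these 12 markers were open per library. Of 10 T cell markers 1 to 4 were open per library, and of 9 markers of dendritic cells and macrophages 2 to 5. Of 7 fibroblast markers 0 to 4 were open, and of 10 neutrophil markers 0 to 2. Some of these were open as often as markers of mTEChi: Xcr1 and Flt3 in 12 libraries, Col1a1 in 11, and Cd4, Lat, Clec9a, Pdgfra and Camp in 9 each. Others, among them Cd8a, Lck, Rag1, Cd209a, Siglech and Col3a1, were open in none. Open calls at such markers do not by themselves measure purity. The lists held 34047 to 122326 peaks, and the wild types of the Aire -/- set had the shortest.

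The number of open member genes differed between the sets as well as between genotypes. Aire -/- libraries had 16 and 16 members open and their wild types 11 and 11. Aire +/C313Y libraries had 15 and 16 and their wild types 20 and 18. Aire +/C442G libraries had 20 and 19 and their wild types 19 and 19. In the Aire -/- and C313Y sets mutants and wild types did not overlap, and the directions were opposite: members were more often open in Aire -/- cells and less often open in Aire +/C313Y cells than in their own wild types. The difference in the C313Y set held the 3 near-identical Sprr2a genes: without them 15 and 15 members were open in Aire +/C313Y libraries and 17 and 15 in their wild types, which overlapped.

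Over all protein-coding genes the Aire -/- set showed the same direction, while the C313Y set overlapped. Of all protein-coding genes 61.3% and 63.0% were open in Aire -/- libraries, against 51.6% and 51.6% in their wild types. In the C313Y set the shares were 63.0% and 59.2% in heterozygotes and 61.0% and 59.2% in wild types. In the C442G set they were 66.2% and 65.2% in heterozygotes and 63.5% and 64.5% in wild types. The Aire -/- lists were also the longer ones, with 85826 and 94976 peaks against 34715 and 34047 in their wild types. When every list was limited to its 34047 widest peaks, 11 and 12 members were open in Aire -/- libraries and 11 and 11 in their wild types, 9 and 12 in Aire +/C313Y libraries and 17 and 14 in their wild types, and 12 and 14 in Aire +/C442G libraries and 11 and 13 in their wild types. At equal list length the Aire -/- set thus overlapped between genotypes and the C313Y set did not, also without the Sprr2a genes (9 and 11 in heterozygotes and 14 and 12 in wild types). Over all genes the shares at that length were 51.1% and 51.6% in Aire -/- libraries and 51.5% and 51.6% in their wild types, 54.8% and 54.4% in Aire +/C313Y libraries and 53.6% and 54.6% in their wild types, and 49.3% and 48.7% in Aire +/C442G libraries and 50.8% and 52.2% in their wild types.

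**Figure D2:**
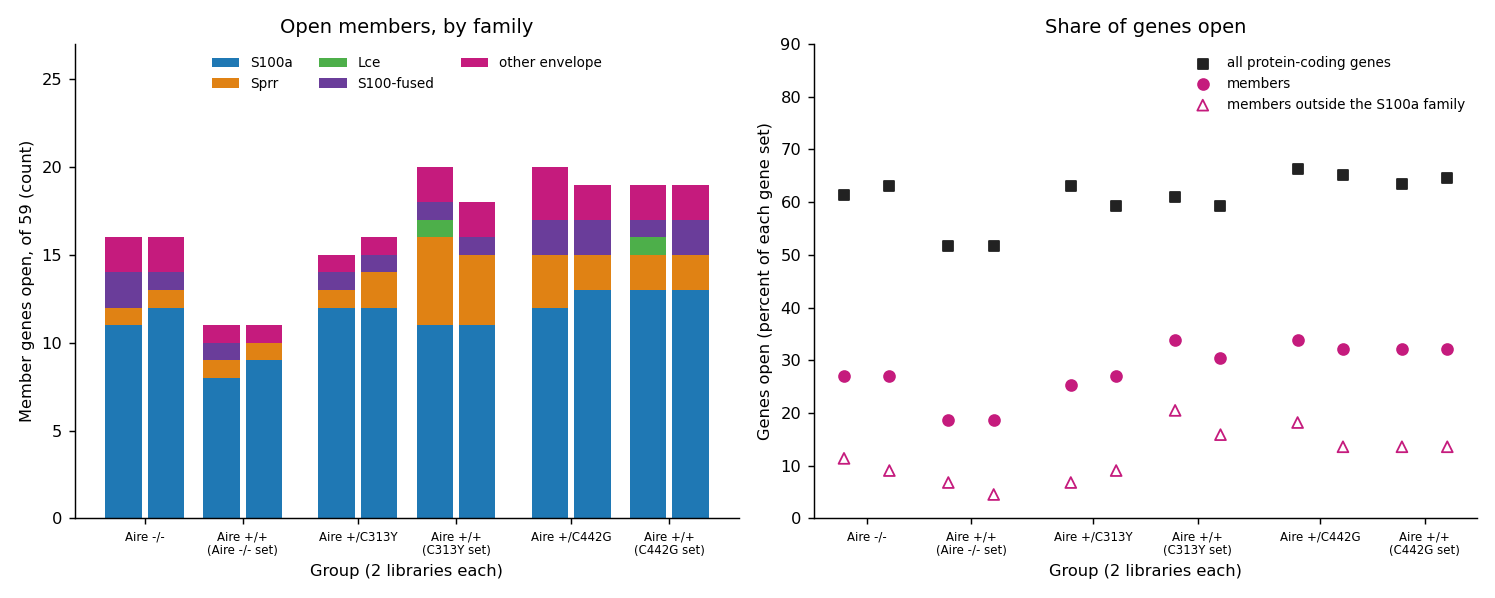
Left, the number of member genes open in each of the 12 libraries, stacked by family; right, the percentage of genes open among all protein-coding genes (squares), all 59 members (circles) and the 44 members outside the S100a family (triangles). Members lie below all genes in every library, and the 2 wild types of the C313Y set have the tallest Sprr bars, with 5 and 4 genes.

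Outside the S100a family the cluster was nearly closed. Of the 44 other members, 5 and 4 were open in Aire -/- libraries and 3 and 2 in their wild types, 3 and 4 in Aire +/C313Y libraries and 9 and 7 in their wild types, and 8 and 6 in Aire +/C442G libraries and 6 and 6 in their wild types. The highest share, 20.5% in wild-type replicate 1 of the C313Y set, was still below the lowest share for all protein-coding genes, 51.6%. Fewer cells with an open site and a weaker opening in each cell cannot be told apart in such bulk lists.

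Genes were next compared one by one. Gained means open in 2 of 2 mutant libraries and in 0 of 2 wild types of the same set, and lost means the opposite. In Aire -/- cells 2 of 59 members were gained (3.39%, against 5.21% of all protein-coding genes), S100a5 and Crct1, and 0 were lost (0.0277% of all genes). In Aire +/C313Y cells 0 were gained (0.846% of all genes) and 3 were lost (5.08%, against 0.37% of all genes), Sprr2a1, Sprr2a3 and Crct1. In Aire +/C442G cells 0 members were gained (0.897% of all genes) and 0 were lost (0.291% of all genes). The share gained in Aire -/- cells was thus near that of all genes, and the share lost in Aire +/C313Y cells was above it but rested on 3 genes, 2 of which have nearly the same promoter window.

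An exact two-sided permutation test over the 12 libraries, with labels exchanged within each set (216 assignments, smallest possible p = 0.00926), called 0 members and 0 genes in all at an adjusted p under 0.05 by the Benjamini-Hochberg method. At an unadjusted p under 0.05 it called 0 members, against 17 genes in all (0.0786%). Among members the smallest exact permutation p was 0.333 (adjusted p = 1). Within a set of 2 libraries against 2, the exact permutation test cannot go below p = 0.333, so each gain or loss above is a description of 4 libraries.

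Markers of other cells differed in the same sets. Of 10 T cell markers 4 and 2 were open in Aire -/- libraries and 1 and 1 in their wild types, with Cd4 and Lat gained. Of 9 markers of dendritic cells and macrophages 5 and 4 were open in Aire -/- libraries and 2 and 2 in their wild types, with Clec9a and Zbtb46 gained. Of 7 fibroblast markers 3 and 3 were open in Aire -/- libraries and 2 and 0 in their wild types, with none gained or lost. These 3 lists were thus more often open in Aire -/- cells, as were all genes, of which 5.21% were gained. The gained shares of the T cell list and of the dendritic cell and macrophage list were higher, each from 2 genes. Of 10 neutrophil markers 0 were gained. Of the 7 fibroblast markers 2 and 2 were open in Aire +/C313Y libraries and 3 and 3 in their wild types. Pdgfra and Dcn were lost (2 of 7, against 0.37% of all genes) and Pdgfrb was gained (1 of 7, against 0.846%). The part of these cells in the calls above was not tested.

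S100 genes carried most of the signal. S100a1, a calcium sensor of muscle, and S100a13, which helps to export growth factors that lack a signal peptide, share a start region at 90514202 to 90515004 that was called in 12 of 12 libraries. S100a14 (90526605 to 90527212) and the upstream end of S100a3 (90559846 to 90560865), a protein of the hair cuticle, were also called in 12 of 12. The S100a14 peak was 460 and 487 bp wide in Aire -/- libraries against 216 and 286 bp in their wild types, 494 and 455 bp in Aire +/C313Y libraries against 419 and 416 bp, and 578 and 536 bp in Aire +/C442G libraries against 551 and 551 bp in their wild types. It was wider in both mutant libraries of the first 2 sets, while in the C442G set the values overlapped. Widths here and below were not corrected for list length or for depth, which is unknown, and their differences were not tested.

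The peak at the S100a3 end had 764 and 764 bp in Aire -/- libraries and 155 and 91 bp in their wild types, where the fold enrichment over background, the authors' own value per peak, was 4.99 and 5.26 in Aire -/- and 3.94 and 4.41 in wild type. In the C313Y set the same peak was 164 and 116 bp in heterozygotes and 236 and 89 bp in wild types, which overlapped. In the C442G set it was 627 and 1016 bp in heterozygotes and 801 and 389 bp in wild types, which overlapped too. The S100a4 peak (90604370 to 90604927), inside the gene 600 bp from its start, and that at the S100a11 start (93520302 to 93521185) were called in 12 of 12. S100a4 is known for cell motility and S100a11 as a partner of annexin A1 that is built into the envelope.

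S100a16, S100a6, S100a8 and S100a10 were open in 11 of 12 libraries each. The missing call was in the wild types of the Aire -/- set for S100a6, S100a8 and S100a10, and in wild-type replicate 2 of the C313Y set for S100a16. Over the whole gene and 1 kb either side, S100a10 and S100a16 had a peak in 12 of 12 libraries. Their missing calls thus depended on the window. S100a10, the partner of annexin A2, had no entry in the table of starts. S100a6 (calcyclin) had peaks 428 and 429 bp wide at its start in Aire -/- libraries, against 96 bp and no peak in their wild types. In the C313Y set this peak was 462 and 406 bp in heterozygotes and 446 and 435 bp in wild types. In the C442G set it was 461 and 458 bp in heterozygotes and 401 and 377 bp in wild types. Peaks were wider in mutants in the Aire -/- and C442G sets and overlapped in the C313Y set.

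The same S100a6 peak made the gain of S100a5, its neighbour upstream. The peak begins 976 and 983 bp beyond the end of S100a5 in Aire -/- libraries, inside the 1 kb window, and 1016 bp beyond it in wild-type replicate 1 of that set, just outside. In the other 8 libraries it begins 942 to 969 bp beyond that end. The start of S100a5 itself was open in 1 of 12 libraries, Aire -/- replicate 1, and the gain was not called with windows of 500 or 2500 bp.

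S100a8 and S100a9 encode the subunits of calprotectin, an antimicrobial protein of neutrophils and stressed epithelium. The S100a8 start (90668878 to 90669123) was called in 2 of 2 Aire -/- libraries and in 1 of 2 of their wild types, and in 4 of 4 libraries of each other set. Its fold enrichment was 4.25 and 4.61 in Aire -/- libraries and 4.42 in the wild type that had it. It was 6.84 and 10.6 in Aire +/C442G libraries and 6.68 and 5.1 in their wild types. Both C442G heterozygotes were above both wild types, but 6.84 and 6.68 nearly tied. These values are scaled within each list and were not tested. S100a9 was open in 4 of 12 libraries: Aire -/- replicate 2, Aire +/C442G replicate 2 and both wild types of the C442G set. Of the 10 neutrophil markers 7 were open in none of the 12 libraries, among them Elane, Mpo, Ly6g and Csf3r, while Camp was open in 9 and Ltf and Mmp8 in 1 each.

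S100a7a, a relative of human psoriasin, was open in 7 of 12 libraries, in 0 of 2 Aire -/- libraries and 0 of 2 of their wild types, in 2 Aire +/C313Y libraries and 1 of their wild types, and in 2 Aire +/C442G libraries and 2 of their wild types. Its start was open in none. A region at 90652981 to 90653241, inside the annotated gene and 1056 bp from its upstream end, was called in 12 of 12. It lay just outside the window that defined an open gene, and before the start entry at 90654302.

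Among envelope genes the small proline-rich family was split. Sprr1a, the Sprr gene first known as a cornifin, was open at its start (92485882 to 92486695) in 12 of 12 libraries. Its peak had a fold enrichment of 7.26 and 10.9 in Aire -/- libraries and 5.78 and 7.03 in their wild types, and of 11.6 and 10.7 in Aire +/C442G libraries and 8.24 and 8.64 in their wild types. Both mutants lay above both wild types in each of these sets. Fold enrichment is scaled within its own list, so such differences between lists carry no test.

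In the C442G and C313Y sets the Sprr1a peak was narrower in both mutants than in both wild types, and in the Aire -/- set it was wider. It was 297 and 297 bp in Aire +/C442G libraries and 755 and 770 bp in their wild types, 170 and 209 bp in Aire +/C313Y libraries and 251 and 239 bp in their wild types, and 307 and 231 bp in Aire -/- libraries and 226 and 180 bp in their wild types. In both C442G heterozygotes 2 separate peaks were called in this region, against 1 in each wild type. By −log10 p the Sprr1a peak ranked above 77.7% of peaks in its list or higher in all 8 lists that give a p.

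Sprr1b, the nearest relative of Sprr1a, was open in 4 of 12 libraries (Aire +/C442G replicate 1, both wild types of that set and wild-type replicate 1 of the C313Y set), and its start in 1. Sprr3, an oesophageal member, and Sprr4 were open in none. Sprr2d and Sprr2k were each open in 1 of 12, an Aire +/C442G library in both cases, and the remaining 5 Sprr2 genes (Sprr2b, Sprr2e, Sprr2f, Sprr2h and Sprr2i) in none.

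The Sprr2a genes had peaks in the C313Y set and in none of the other 8 libraries. Sprr2a1 had no peak in either Aire +/C313Y library and peaks of 246 and 186 bp in their wild types. Sprr2a2 had a peak of 135 bp in Aire +/C313Y replicate 3 and of 246 and 85 bp in the wild types. Sprr2a3 had none in Aire +/C313Y libraries and peaks of 148 and 126 bp in their wild types. Sprr2a1 and Sprr2a3 were therefore lost by the rule and Sprr2a2 was not.

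The positions of these peaks repeat between the gene copies. In wild-type replicate 1 the peaks at Sprr2a1 and Sprr2a2 were both 246 bp wide and both ended 175 bp before the annotated start. In wild-type replicate 2 they were 186 and 85 bp wide and both ended 301 bp before it. The printed windows cover only part of these peaks: 4 of the 7 ended before the shared run and 3 reached into it, and the sequence under the rest was not read. A read that lies wholly within the shared run matches all 3 copies. How reads with several matches were handled is not given in the sources used here, and the part of such reads in these calls was not tested. The lists of the C313Y set hold positions only, so no enrichment or p is known for these peaks, and whether they were called at the threshold of the other sets was not tested.

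Lor was open in 12 of 12 libraries, but not at its start. The region (92080495 to 92081876) lies inside the gene, 224 bp from its far end. It stops 1266 bp short of the annotated start, where no library had a peak within 1 kb. The Lor peaks were 950 and 629 bp wide in Aire -/- libraries and 588 and 637 bp in their wild types. They were 833 and 835 bp in Aire +/C313Y libraries and 199 and 460 bp in their wild types, and 797 and 913 bp in Aire +/C442G libraries and 512 and 1288 bp in their wild types. Only in the C313Y set did the groups not overlap, with wider peaks in heterozygotes. The peaks were wide for their lists, wider than 68.1% to 99.8% of all peaks, but of low enrichment: 3.96 and 4.67 in Aire -/- libraries against 3.91 and 4.62 in wild types, and 5.25 and 4.79 in Aire +/C442G libraries against 4.69 and 5.5 in wild types.

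**Figure D3:**
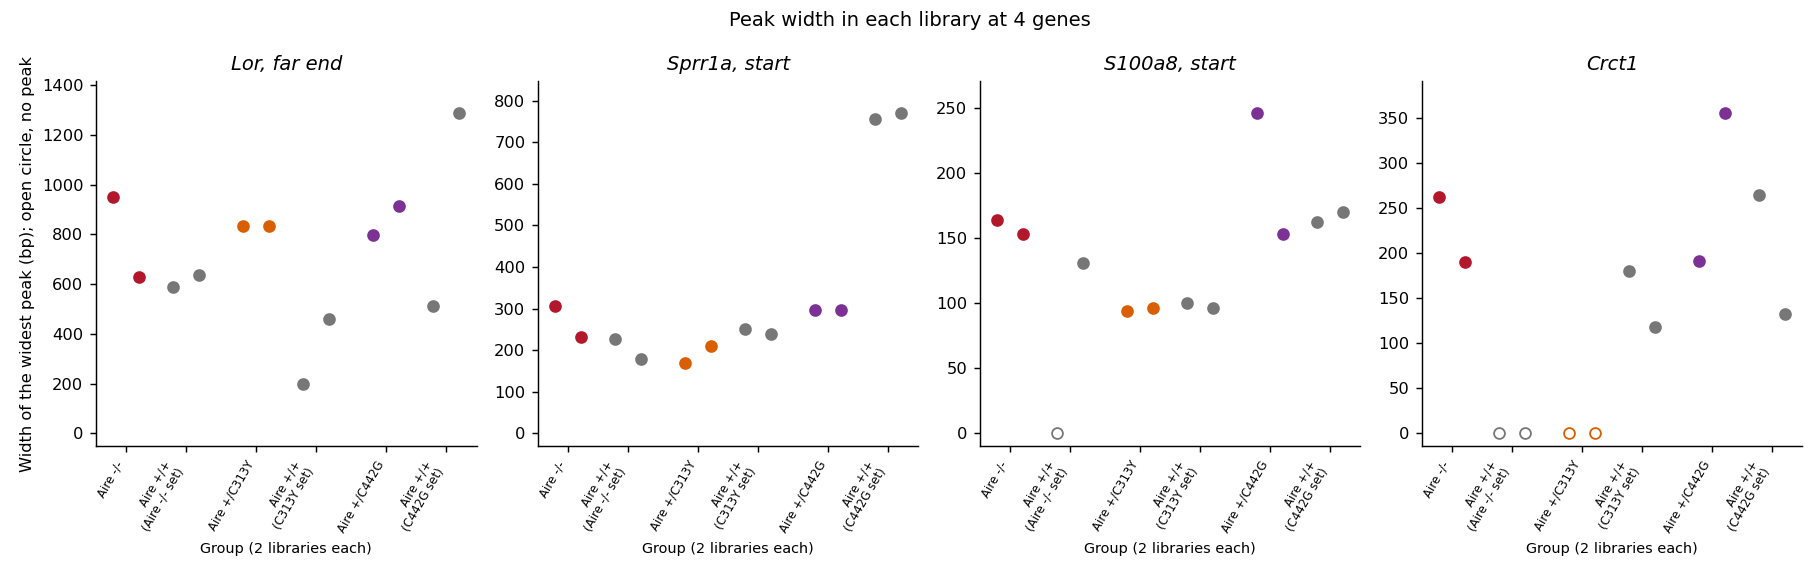
Width in bp of the widest peak in each library near the Lor far end, at the Sprr1a start, at the S100a8 start and at Crct1. The 2 libraries of each group stand side by side, mutants in colour and wild types in grey. An open circle at 0 means no peak. Sprr1a stands out in the wild types of the C442G set (755 and 770 bp), and Crct1 has no peak in the wild types of the Aire -/- set or in Aire +/C313Y libraries.

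Ivl was open in 1 of 12 libraries, Aire +/C442G replicate 1. Crct1, a small cysteine-rich gene among the Lce genes, was the member whose calls differed most between sets. Its region (93014421 to 93014827) was called in 2 of 2 Aire -/- libraries and 0 of 2 of their wild types, in 0 of 2 Aire +/C313Y libraries and 2 of 2 of their wild types, and in 2 of 2 Aire +/C442G libraries and 2 of 2 of their wild types. It was therefore gained in 1 mutant and lost in another, and its permutation test over all 12 libraries gave an exact p = 1.

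The Crct1 peaks were weak. In Aire -/- libraries their fold enrichment was 3.5 and 3.57 and their −log10 q 1.77 and 1.88, above 30.1% and 31.1% of the peaks of those lists by −log10 p. In Aire +/C442G libraries the fold was 4.45 and 4.16 and in their wild types 3.25 and 3.75. With lists cut to the same length within each set, the Crct1 gain in Aire -/- cells was not called and the loss in Aire +/C313Y cells was. That cut ranked peaks by p in the Aire -/- set and by width in the C313Y set, whose lists give no p. With every list limited to its 34047 widest peaks, neither the gain nor the loss was called.

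Late envelope genes were closed in almost every library. Of 21 Lce genes, Lce3a was open in wild-type replicate 1 of the C313Y set and Lce3b in wild-type replicate 1 of the C442G set. The other 19 were open in none of the 12 libraries, so no Lce gene was open in any mutant library. Crnn, which encodes cornulin of squamous epithelia, was open in 1 of 2 Aire -/- libraries and 0 of 2 of their wild types, in 0 of 2 Aire +/C313Y libraries and 1 of 2 of their wild types, and in 2 of 2 Aire +/C442G libraries and 1 of 2 of their wild types.

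Rptn, which encodes the envelope precursor repetin, was the most often open of the S100-fused genes, in 10 of 12 libraries. Its start was open in 2 of 2 Aire -/- libraries and 1 of 2 of their wild types, in 0 of 4 libraries of the C313Y set, and in 4 of 4 of the C442G set. A region at its far end (93398458 to 93399037) had peaks of fold 4.79 and 7.48 in Aire -/- libraries and no peak in their wild types. It was called in 2 Aire +/C313Y libraries and 1 of their wild types, and in 4 of 4 libraries of the C442G set.

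Flg, Flg2, Hrnr and Tchh had no peak within 1 kb of either end in any library. Peaks nearby were nevertheless found. Inside Tchh, which encodes trichohyalin of the hair root sheath, a region at 93444340 to 93445083 was called in 2 of 2 Aire -/- libraries and 0 of 2 of their wild types and in all 8 other libraries. A second one inside Tchh at 93447271 to 93447775 was called in 0 of 2 Aire +/C313Y libraries, in 2 of 2 of their wild types and in the 8 libraries of the other sets. Beyond the far end of Flg, by 2174 bp, a region at 93295863 to 93296865 was called in 9 of 12 libraries: 2 Aire -/- libraries and 1 of their wild types, 1 Aire +/C313Y library and 1 of their wild types, and 2 Aire +/C442G libraries and 2 of their wild types.

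Peaks across the whole stretch were then merged into 261 regions. Of these 39 lay within 1 kb of a member's end, 29 inside a member, 7 at another gene and 186 between genes. Of the 24 regions called in all 12 libraries 13 lay between genes, 3 inside a member and 8 near a member's end. Their share, 9.2%, was near that of all regions of the genome, 8.16%. Thus the locus held sites open in every library at a rate like the rest of the genome, although its genes were open less often.

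**Figure D4:**
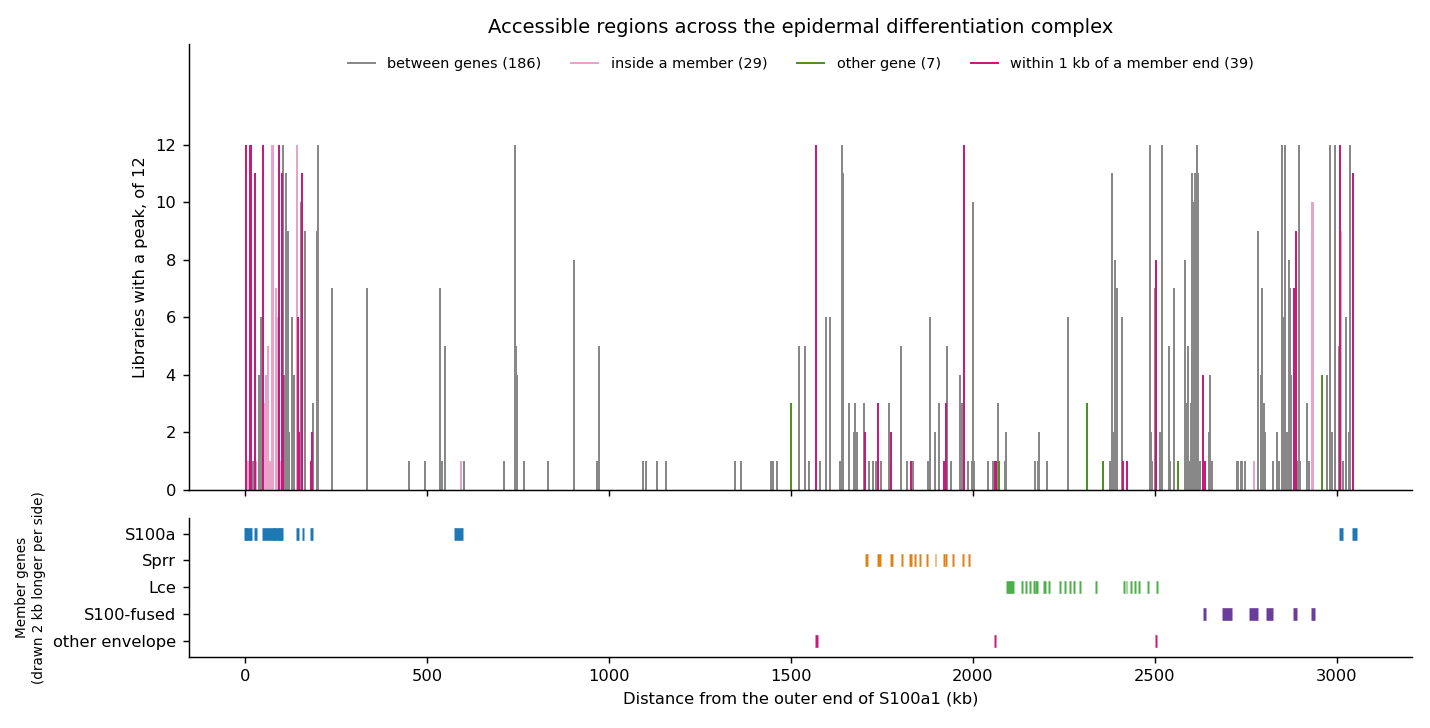
Upper panel, each vertical line is 1 of the 261 accessible regions, placed by its distance in kb from the outer end of S100a1, with a height equal to the number of the 12 libraries that have a peak there and a colour for its position relative to genes. Lower panel, the member genes by family on the same axis; tall lines stand at the S100a genes at both ends, at Lor and Sprr1a, and between genes near Crnn.

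Regions called in all 12 libraries lay far from member genes in several places. One lay at 91253589 to 91253987 in the gene-poor stretch, 146160 bp from S100a7l2. Another lay at 92150762 to 92150983, between Lor and the Sprr2a genes, and one more at 92998785 to 92998975, 5359 bp from Lce3f. A region at 93127966 to 93128649 lay 16140 bp before Crnn, with 4 others called in 10 or 11 libraries close by. Near S100a11 a region of 1251 bp at 93506044 to 93507294 was called in all 12. The members nearest to these 5 regions differed: S100a7l2 and Lce3f were open in 0 of 12 libraries, Sprr2a1 in 2, Crnn in 5 and S100a11 in 12. Only members were searched, so a gene outside the cluster list may lie nearer.

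Region by region, the Aire -/- set changed at the locus as it did across the genome. In Aire -/- cells 26 of 121 regions of that set were gained (21.5%, against 20.6% of all regions) and 0 lost (0.0795% of all regions). In Aire +/C313Y cells 4 of 134 were gained (2.99%, against 4.45%) and 6 lost (4.48%, against 1.39%). In Aire +/C442G cells 8 of 193 were gained (4.15%, against 7.14%) and 4 lost (2.07%, against 1.01%). Of the 6 regions lost in Aire +/C313Y cells 3 were those at Sprr2a1, Sprr2a3 and Crct1, 1 lay inside Tchh and 2 between genes. All 4 regions gained in these cells lay between genes. Those that begin at 92185398 and 92192212 lay 30286 and 23463 bp before Sprr2a1 and were called in no library outside the C313Y set. Near the Sprr2a genes calls seen only in this set thus went both ways. The other gained regions were also called in libraries of the other sets.

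Density of peaks followed the families. Peaks per 100 kb in the S100a1 to S100a9 segment were 15.0 and 18.2 in Aire -/- libraries against 8.03 and 7.5 in wild types, 12.3 and 9.64 in Aire +/C313Y libraries against 9.64 and 8.57, and 20.9 and 18.2 in Aire +/C442G libraries against 16.6 and 18.2. In the segment from Lce6a to Lce1m they were 1.92 and 1.92 in Aire -/- libraries against 0.24 and 0.721 in wild types, 1.92 and 0.721 in Aire +/C313Y libraries against 2.64 and 0.961, and 3.36 and 2.88 in Aire +/C442G libraries against 3.6 and 2.4. The S100a segment was denser than the Lce segment in each of the 12 libraries. A longer list holds more peaks, and the densities were not corrected for that.

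**Figure D5:**
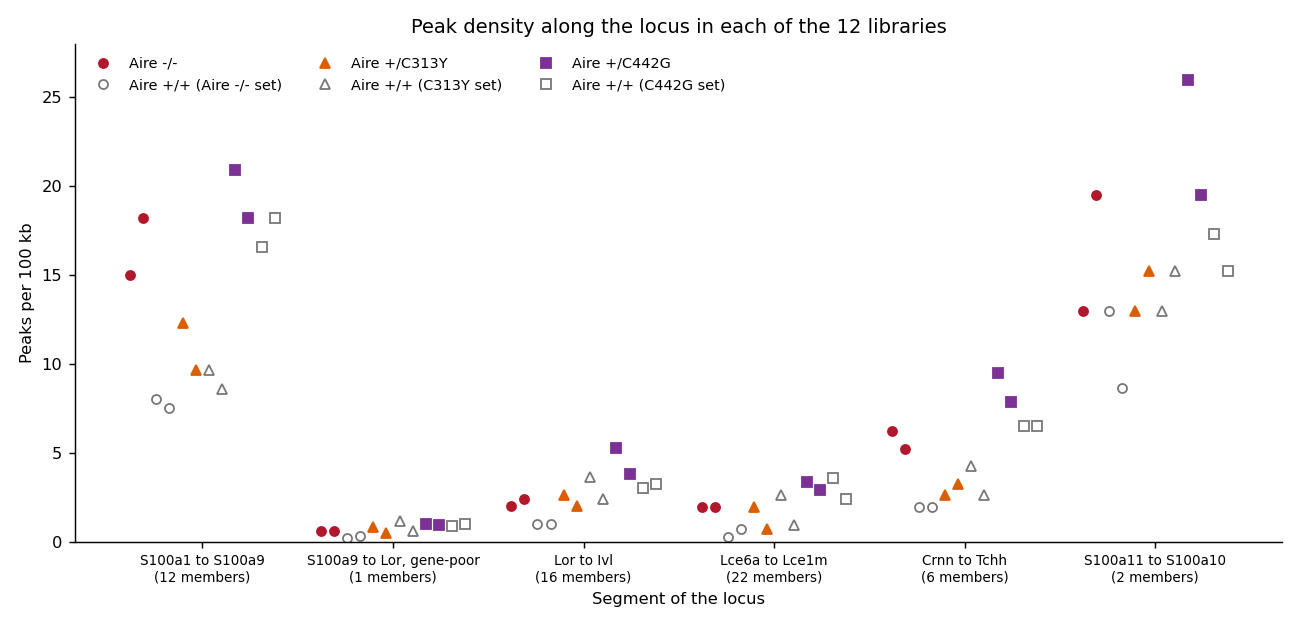
Peaks per 100 kb in 6 segments of the locus, with 1 symbol per library, filled for mutants and open for their wild types. The 2 S100a segments at the ends lie highest and the gene-poor stretch lowest, at 0.217 to 1.16 peaks per 100 kb.

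The letters of the promoters were compared with these calls. The AP-1 letters TGANTCA, on either strand, stood in 18 of 58 promoter windows of members (31.0%), against 7.85% of all 32619 windows in the table. They were in 9 of 14 Sprr windows, 3 of 16 S100a windows and 0 of 20 Lce windows. TATAAA stood in 25 of 58 (43.1%, against 13.7%), and CCAAT in 15 of 58 (25.9%, against 37.6%). The E-box CANNTG stood in 82.8% of member windows (72.3% of all), GGAAGT in 31.0% (23.9%), GGGNGTG in 13.8% (29.0%) and AACCNGTT in 5.17% (2.1%).

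Open and closed starts were found both with and without AP-1 letters. Taking each window with its own start, 2 of 18 with these letters were open in all 12 libraries (S100a11 and Sprr1a), 6 in some and 10 in none. Of the 40 windows without them 4 were open in all 12, 11 in some and 25 in none. The Sprr1a window holds the AP-1 letters at bases -146 and -116 from the start and the TATA letters at -43. The Lor and Ivl windows hold both as well, at -48 and -27 for Lor and at -116 and -29 for Ivl. In 7 of 10 Sprr2 genes AP-1 letters lay 182 to 198 bases before the start with TATA letters nearer to it, and 6 of those 7 starts were open in no library. The Sprr2a windows hold neither.

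Other genes of the cornified envelope and skin barrier, which lie elsewhere in the genome, were read in the same way. Of 36 such genes, chosen with results of these data known, 18 (50%) were open in all 12 libraries, against 46.6% of all protein-coding genes, and 5 (13.9%) in none, against 25.8%. They were open in 23 and 27 cases in Aire -/- libraries and 20 and 20 in wild types, 25 and 22 in Aire +/C313Y libraries and 22 and 23 in wild types, and 29 and 27 in Aire +/C442G libraries and 28 and 26 in wild types. Regulators led: 10 of 13, among them Klf4, Ovol1, Prdm1, Cebpa, Maf and the AP-1 subunits Fosl1 and Junb, were open in all 12, and Trp63 and Zfp750 in 11.

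Structural genes off the locus were mixed. The desmosomal and envelope genes Evpl, Ppl, Dsp, Pkp1 and Cdsn and the keratins Krt1 and Krt10 of suprabasal keratinocytes were open in all 12. Krt2 and Dsc1 of the upper layers and the desquamation genes Klk5, Klk7 and Spink5 were open in none. In Aire -/- cells 3 of the 36 were gained (8.33%, against 5.21% of all genes), the desmoglein Dsg1a, the lipoxygenase Aloxe3 and the regulator Grhl3, and 0 were lost. In Aire +/C313Y cells 1 was gained, Dsg1a (2.78%, against 0.846%), and 1 was lost, the lipoxygenase Alox12b (2.78%, against 0.37%), and in Aire +/C442G cells 0 were gained or lost. None of the 36 passed the permutation test at an adjusted p under 0.05, a threshold practically out of reach for single genes.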

How the data were processed

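Per the submitters' processing notes, which name cutadapt, Bowtie2, Picard and MACS2 and the build mm10 without versions or order, the authors made 1 peak list per library. For 8 libraries the deposited lists give positions, a score, a fold enrichment over background (ratio), −log10 p and −log10 q per peak; for the 4 libraries of the C313Y set the deposited lists give positions only. The sources used here do not give read shifting, the removal of duplicates or the handling of reads with several matches. Without read counts the depth is unknown.

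Only chromosomes 1 to 19 and X were used. Genes and promoter windows came from RefSeq tables for GRCm38.p6, whose coordinates are those of mm10. A peak counted when it overlapped by at least 1 bp the window within 1 kb of a gene end. Peaks were merged over the 12 libraries into regions, and within each set for gains and losses of regions. Strand and start were known for 54 of 59 members; S100a14, S100a2, Lce1f, Crct1 and S100a10 had no entry. Calls and the exact permutation test were made for all 21631 genes in Python 3.11.15 with numpy 2.4.6 and pandas 2.3.3 and were checked on simulated lists. Whether the same replicate numbers in mutants and wild types pair the libraries is not known from the labels. Deviations from group means correlated at 0.00843 in the Aire -/- set and 0.017 in the C442G set. With 2 libraries per group such values cannot decide it.

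The members and the gene lists were chosen with earlier results of these data known. Named in full were members gained or lost, members open in all 12 libraries, and S100a8, S100a9, Lor, Ivl, Flg and Sprr1a; other regions and genes named were chosen after their values were seen. Alternatives were other gene windows, peak midpoints, equal list lengths, a −log10 q of at least 3, all 6 wild types, leaving out each replicate, and a replicate block. Starts alone and the removal of peaks shared by genes or of the Sprr2a genes were added after seeing the data.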

Additional observations from a re-analysis of the deposited data

Results flagged for a closer look

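Crct1 was gained in Aire -/- cells and lost in Aire +/C313Y cells, each against its own wild types, so that both libraries of one set moved against both libraries of the other. The differences between mutant and wild-type libraries with a peak (2 minus 0 and 0 minus 2) were 4 libraries apart. The difference between the sets was not tested.

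A region between genes at 90750278 to 90750616, 54557 bp from S100a9, showed the same opposite calls, again 4 libraries apart and not tested. It was called in 2 of 2 Aire -/- libraries and 0 of 2 of their wild types, in 0 of 2 Aire +/C313Y libraries and 2 of 2 of their wild types, and in 2 of 2 Aire +/C442G libraries and 1 of 2 of their wild types.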

How the results depend on the processing

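Of 88 recomputed values 64 stayed within 1.5 times the reported one and 24 did not. Most of the 64 were counts of 0 that stayed at 0. The count of gains in Aire -/- cells moved under most of its 13 alternatives. The 2 gains in Aire -/- cells became 1 with windows of 500 bp or 2500 bp or without peaks shared by genes (Crct1), 1 with peak midpoints, 1 with lists of equal length (S100a5), 0 with starts alone or with all 6 wild types, and 5 at a −log10 q of at least 3 (S100a3, S100a5, S100a6, Rptn and S100a10). Of all genes 4.54% and 6.2% were gained in Aire -/- cells with windows of 500 and 2500 bp, and 5.0% with midpoints. With equal lists 0.8% were gained, and with starts alone 4.25% of genes with an entry. For the other settings, among them the −log10 q of at least 3, no such share is given. The 5 gains there can thus not be set against all genes. Leaving out 1 library gave 3 to 4 member gains in Aire -/- cells, with 4 without wild-type replicate 1 or 2. With equal lists Lor was lost in Aire -/- cells (1.57% of all genes lost and 0.8% gained there) and Sprr1b in Aire +/C442G cells (0.901% of all genes lost), 1 gene each. The 3 losses in Aire +/C313Y cells became 0 against all 6 wild types. They numbered 3 to 6 with 1 library left out, the 6 being without wild-type replicate 2. They became 2 with windows of 2500 bp (Sprr2a1 and Crct1), where 0.467% of all genes were lost. The widest peaks also left 2 (Sprr2a1 and Sprr2a3), as did starts alone, where Crct1 had no entry. By starts alone 0.295% of all genes with an entry were lost. With 1 library left out gains in Aire +/C313Y and Aire +/C442G cells ranged from 0 to 2 and losses in Aire +/C442G cells from 0 to 1. The 8 genes open in all 12 libraries became 14 with windows of 2500 bp (52.0% of all genes). With the widest peaks only they became 2, S100a14 and Lor (34.9% of all genes). The permutation test called 0 members under the 5 alternatives it was run for: windows of 500 and 2500 bp, the widest peaks, starts alone and the replicate block (smallest exact p = 0.333 with the block). Its adjusted threshold was practically out of reach for single genes, so these results do not show that the calls are stable. Causes were not tested. With 2 libraries per group and unknown depth, a missing peak is not evidence of closed chromatin.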

Other observations

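The 11 other protein-coding genes of the stretch were nearly all closed as well. Tchhl1, a relative of Tchh, was open in 4 of 12 libraries, the peptidoglycan recognition gene Pglyrp3 in 3, 2310050C09Rik in 2, and Smcp and Tdpoz8 in 1 each. The other 6, among them Pglyrp4, Lelp1 and Kprp, were open in none. Per library 0 to 3 of the 11 were open, with 0 in both Aire -/- libraries and 0 in both of their wild types, 0 in both Aire +/C313Y libraries against 2 and 0 in their wild types, and 3 and 2 in Aire +/C442G libraries against 2 and 2 in their wild types.

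Members open in both libraries of a group numbered 15 in Aire -/- cells, with 2 more open in 1 library, and 9 with 4 more in their wild types. They numbered 15 with 1 more in Aire +/C313Y cells and 16 with 6 more in their wild types, and 17 with 5 more in Aire +/C442G cells and 18 with 2 more in their wild types. Over all regions of the genome, 59754 regions were in both libraries and 55852 in 1 in Aire -/- cells, against 21535 and 23579 in their wild types. They were 46196 and 37507 in Aire +/C313Y cells against 37536 and 52483 in their wild types, and 91301 and 50501 in Aire +/C442G cells against 70834 and 42444 in their wild types.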
